A study of Mus musculus with 18 samples.

Results

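The 9 genes described here encode transcription factors of the interferon regulatory factor (IRF) family, namely Irf1, Irf2, Irf3, Irf5, Irf7, Irf8 and Irf9, and of the signal transducer and activator of transcription (STAT) family, namely Stat2 and Stat3. They were taken by name out of 55414 genes in the count table. Of the 9, 8 were among the 21772 genes whose counts summed to 10 or more over the libraries and which were tested, and Irf8 was not.

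The libraries came from C2C12 cells, a mouse myoblast line, after 6 days of differentiation into myotubes. Cells had received a non-targeting siRNA pool (siNtc), a pool against Erk3 (gene Mapk6) (siErk3) or a pool against its partner kinase Mk5 (gene Mapkapk5) (siMk5), so that the controls were transfected too. Myotubes of each kind were then kept without serum for 16 h with palmitic acid (PA, 0.5 mM) carried by BSA, or with BSA alone, which gave 6 groups of 3 libraries. Each siRNA pool mixes several siRNAs against 1 gene in 1 cell line, and no label says whether replicates were separate cultures, so that p-values measure the spread between these libraries, which may be technical.

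Between 13041979 and 28496727 fragments were assigned to genes per library. Mapk6 stood at 8.60 ± 0.40 FPKM (SD, n = 3) in siErk3 BSA against 19.8 ± 0.48 in siNtc BSA, and at 18 ± 1.70 in siErk3 PA against 34.7 ± 2.20 in siNtc PA, with FDRs of 1.77e-14 and 1.21e-12, where FDR is the Benjamini-Hochberg adjusted p of edgeR's quasi-likelihood test over the 21772 genes. Mapkapk5 stood at 0.51 ± 0.13 FPKM in siMk5 BSA against 0.77 ± 0.04 in siNtc BSA and at 0.72 ± 0.04 in siMk5 PA against 1.01 ± 0.22 in siNtc PA; the ranges did not overlap, and the FDR was 0.469 in both media. The 18S rRNA gene Rn18s-rs5 took 1.5 to 2.96% of counts in siErk3 BSA, 2.56 to 7.17% in siNtc BSA, 8.39 to 12.9% in siMk5 BSA and 1.71 to 6.77% in the PA libraries. Myotube markers were abundant in every library, with Acta1 at 1844.5 to 2417.5 FPKM and Myog at 207.6 to 333.5 FPKM. The leukocyte marker Ptprc had 2 counts over all 18 libraries and the macrophage marker Adgre1 had 0.

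Interferons bind receptors on the cell surface, and the attached Jak kinases phosphorylate STAT proteins. STAT2 joins IRF9 in a complex that binds interferon-stimulated response elements (ISREs) in the promoters of antiviral genes. IRF3 is present before any stimulus and is activated by kinases downstream of sensors of foreign nucleic acid to switch on the interferon beta gene, IRF7 is itself interferon-induced and extends that response, IRF1 and IRF2 bind the same kind of element with opposing roles, IRF5 acts below Toll-like receptors, IRF8 guides myeloid cell development, and STAT3 carries signals of the interleukin-6 family of cytokines.

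The promoters of the genes that the results turn on are shown first. The RefSeq promoter table (build GRCm38.p6) held windows of 300 bases, 250 before and 50 after the start, for all 9 genes, 12 windows in all because Irf1, Irf8 and Irf9 each have a pair of starts. On both strands, 3 motifs were searched: the ISRE core, which is GAAA, any 2 bases and GAAA again, present in 3.44% of the 32851 windows of the table, the gamma-activated site (GAS) TTCNNNGAA, which STAT dimers bind, present in 8.30%, and the kappaB consensus, which NF-kappaB binds, present in 4.51%. The windows of Irf7 and Stat2 are printed because these genes moved together with Irf9, and those of Irf1 and Irf2 because they held matches to more than a single motif. The first 180 bases of each window, which end at -71 from the start, are given 5′ to 3′ on the strand of the gene with matches in capitals, and the Irf9 windows, which overlap annotated exons, are not shown:
Irf7 (chr7:141266495-141266674, minus strand): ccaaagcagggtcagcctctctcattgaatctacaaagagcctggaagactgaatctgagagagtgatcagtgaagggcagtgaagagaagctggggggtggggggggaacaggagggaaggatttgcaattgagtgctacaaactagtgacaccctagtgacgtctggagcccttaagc
Stat2 (chr10:128270248-128270427, plus strand): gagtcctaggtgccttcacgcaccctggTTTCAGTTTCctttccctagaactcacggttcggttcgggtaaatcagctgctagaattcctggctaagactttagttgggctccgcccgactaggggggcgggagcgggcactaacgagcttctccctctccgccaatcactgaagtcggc
Irf1, upstream start (chr11:53769764-53769943, plus strand): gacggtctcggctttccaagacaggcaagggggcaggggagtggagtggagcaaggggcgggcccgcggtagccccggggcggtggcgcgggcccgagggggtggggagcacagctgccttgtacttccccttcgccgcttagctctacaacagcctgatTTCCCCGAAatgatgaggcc
Irf2 (chr8:46739495-46739674, plus strand): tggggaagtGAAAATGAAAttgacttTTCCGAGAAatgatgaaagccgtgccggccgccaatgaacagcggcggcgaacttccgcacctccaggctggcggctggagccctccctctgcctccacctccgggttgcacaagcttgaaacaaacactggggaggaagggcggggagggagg
In the Stat2 window the capitals mark an ISRE core on the reverse strand at -222 to -213 from the start. In the Irf1 window they mark a GAS at -90 to -82, and a kappaB match followed beyond the bases shown, at -13 to -4. In the Irf2 window they mark an ISRE core at -241 to -232 and a GAS at -224 to -216, and a kappaB match followed at -17 to -8, so that all 3 motifs were present without overlap. The windows of Irf3, Irf5, Irf7, Irf9 and Stat3 held none of these letter strings, and the upstream Irf8 window held GAS matches at -171 to -163 and -153 to -145. A match describes letters in this window and is not a measured binding site, and a window without a match says nothing about the factor.

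Levels are given as FPKM, counts scaled to the length of all annotated exons of a gene together and to the TMM-normalised library size. This length can exceed that of the transcripts present, as all 3776 bases spanned by Irf7 count as exonic. Order and ratios between genes are therefore approximate, while comparisons of a gene between groups do not depend on it. In siNtc BSA the order was Stat3 (19.6 ± 1.46 FPKM, SD, n = 3), Irf1 (9.65 ± 0.28), Irf3 (9.20 ± 0.86), Stat2 (5.61 ± 0.28), Irf2 (3.14 ± 0.16), Irf9 (2.35 ± 0.02), Irf7 (0.52 ± 0.18) and Irf5 (0.21 ± 0.13). Only the neighbours Irf1 and Irf3 had ranges that overlapped. In siNtc PA the order was Stat2 (28.1 ± 1.57), Stat3 (24.3 ± 0.12), Irf1 (11.9 ± 0.11), Irf9 (10.5 ± 0.59), Irf7 (8.70 ± 0.53), Irf3 (7.28 ± 0.36), Irf2 (5.14 ± 0.37) and Irf5 (0.70 ± 0.11), and no neighbours overlapped. Stat2 thus moved from below Irf1 and Irf3 to the top of the order, while Irf3 moved from above Stat2 to below Irf7. The order in siErk3 PA was that of siNtc PA, with overlapping ranges of Irf9 and Irf7. In siMk5 PA, Stat3 (23.1 ± 0.37 FPKM) was again above Stat2 (18.8 ± 2.05), and Irf7 (4.57 ± 0.95) was level with Irf2 (4.58 ± 0.40). In siErk3 BSA, Irf9 (3.55 ± 0.73) and Irf2 (3.24 ± 0.13) overlapped.

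Irf8 (chr8:121463097-121483433, build GRCm39 as for all gene positions that follow) was the member without signal in these myotubes. A single count in 1 siMk5 BSA library was all that 18 libraries held. A limit of 3 counts per library corresponds to 0.0152 to 0.0299 FPKM for this gene and covers counting error only, so that a lower level was not detectable at this depth. Irf5 (chr6:29526624-29541870) had 4 to 64 counts per library, against 2435 to 6202 for Stat3, and its values carry the largest counting error among the tested members.

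**Figure D1:**
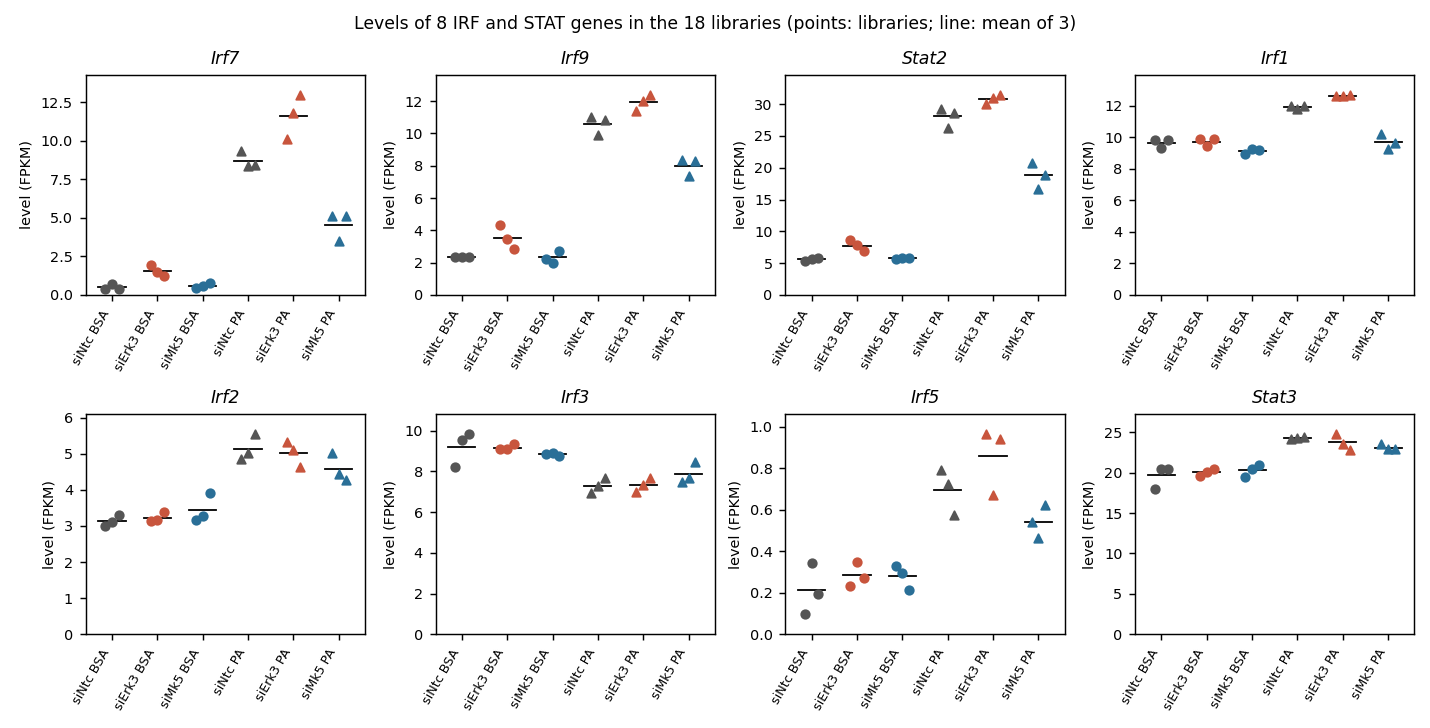
Levels (FPKM) of the 8 tested genes in each library, with BSA groups as circles, PA groups as triangles and the mean of 3 libraries as a line; all axes start at 0. Irf7, Irf9 and Stat2 were highest in siErk3 PA, intermediate in siNtc PA and lower in siMk5 PA, whereas Irf3 was lower in all PA groups than in all BSA groups except for the overlap of siMk5 PA replicate 3 (8.48 FPKM) with siNtc BSA replicate 1 (8.22 FPKM).

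Irf7, Irf9 and Stat2 rose after Erk3 silencing in BSA. Irf7 (chr7:140842619-140846394) stood at 0.409, 0.728 and 0.413 FPKM in the siNtc BSA libraries and at 1.92, 1.52 and 1.24 in the siErk3 BSA libraries. Every siErk3 library was above every siNtc library, and replicate 1 was the highest of the siErk3 group. The fitted change was 2.88-fold (log2 fold change 1.52, SE 0.23, FDR 0.000125).

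Irf9 (chr14:55841028-55847487), the DNA-binding partner of STAT2, stood at 2.33, 2.38 and 2.35 FPKM in siNtc BSA and at 4.32, 3.48 and 2.86 in siErk3 BSA. Stat2 (chr10:128106428-128128718) stood at 5.31, 5.65 and 5.86 FPKM in siNtc BSA and at 8.62, 7.79 and 6.84 in siErk3 BSA. The groups did not overlap for either gene, and siErk3 BSA replicate 1 was again the highest library for both. Irf9 rose 1.5-fold (log2 0.59, SE 0.11, FDR 0.00219) and Stat2 1.37-fold (log2 0.46, SE 0.08, FDR 0.000432). Of the exonic bases of Irf9, 2.3% are shared with Rnf31 on the same strand, where reads cannot be assigned to 1 gene.

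These were 3 of the 8 members tested, all higher, where 0.785% of all genes tested were called at an FDR below 0.05 and a fold above 1.3, and 0.588% were called higher. The remaining members differed by less than the spread between libraries or missed the threshold. Irf1 had a log2 fold change of 0.01 (SE 0.05), Irf2 of 0.04 (SE 0.08), Irf3 of -0.01 (SE 0.06) and Stat3 of 0.02 (SE 0.05), and Irf5 had one of 0.30 with an SE of 0.33. The median over the 8 members was 0.17 on the log2 scale, beside 0.02 over all genes.

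In this comparison the 18S share was lower in siErk3 than in siNtc. The myotube markers Myh3 and Myh8 were called higher, 2 of 8 markers, beside 0.588% of all genes. The summed level of the 8 markers was 4435.3 to 4838.6 FPKM against 4054.3 to 4435.2. Their median log2 fold change was 0.03, beside 0.02 over all genes, and 5 of the 8 were above 0. With the 18S share as a covariate, chosen after seeing the data, the log2 fold changes were 1.98 for Irf7, 0.73 for Irf9 and 0.61 for Stat2, with FDRs of 2.87e-07, 0.000868 and 1.55e-05. Whether the rise of Myh3 and Myh8 had a part in these values was not tested. In bulk RNA, more cells of a kind and more RNA per cell cannot be told apart.

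Mk5 silencing in BSA gave a call in none of the 8 members, where edgeR called 0.0643% of all genes. No member had an unadjusted p under 0.05 in edgeR, and DESeq2 called none either. Irf7 stood at 0.439, 0.560 and 0.779 FPKM in siMk5 BSA, within reach of the siNtc values, with a log2 fold change of 0.12 and an SE of 0.29. Irf9 at 2.23, 2.00 and 2.73 FPKM and Stat2 at 5.70, 5.87 and 5.75 FPKM overlapped the siNtc ranges as well. The siErk3 and siMk5 comparisons share the siNtc libraries, so the direct comparison of siErk3 with siMk5 was made too. In BSA, Irf7 was 2.65-fold (log2 1.40, SE 0.22, FDR 0.000273), Irf9 1.53-fold (log2 0.61, SE 0.11, FDR 0.00134) and Stat2 1.34-fold (log2 0.42, SE 0.07, FDR 0.00119) higher in siErk3, the 3 members called, beside 0.588% of all genes called and 0.482% called higher. Without siErk3 BSA replicate 1 the Stat2 value was 0.35 on the log2 scale, under the fold limit, with an FDR of 0.0171. The 18S share did not overlap between these groups, at 1.5 to 2.96% in siErk3 BSA and 8.39 to 12.9% in siMk5 BSA, and with it as a covariate the log2 fold changes were 2.19 for Irf7, 0.88 for Irf9 and 0.71 for Stat2.

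Under PA, Erk3 silencing left the order of the groups but no member passed. Irf7 stood at 9.31, 8.36 and 8.43 FPKM in siNtc PA and at 10.1, 11.8 and 13 in siErk3 PA. The groups did not overlap, and the lowest siErk3 library was closer to the siNtc libraries than to the highest of its own group. The log2 fold change was 0.42 with an SE of 0.11 and an FDR of 0.08, beside 0.556% of genes called. DESeq2 gave 0.42 with an SE of 0.22 and an adjusted p of 0.631, whereas a fit of the siNtc PA and siErk3 PA libraries alone gave an FDR of 0.0358, and leaving out siErk3 PA replicate 1 gave 0.50 with an FDR of 0.00889. Irf9 was at 11, 9.88 and 10.8 FPKM in siNtc PA and 11.4, 12 and 12.4 in siErk3 PA (log2 0.18, SE 0.08, FDR 0.572). Stat2 was at 29.3, 26.3 and 28.6 FPKM in siNtc PA and 30.0, 30.9 and 31.5 in siErk3 PA (log2 0.14, SE 0.06, FDR 0.562). For both, every siErk3 library lay above every siNtc library, and the same held for Irf1, with a log2 fold change of 0.08. In edgeR 3 of the 8 members had an unadjusted p under 0.05, and DESeq2 called none.

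Under PA, Mk5 silencing lowered Irf7, Stat2 and Irf9. Irf7 stood at 5.11, 3.48 and 5.12 FPKM in siMk5 PA, below every siNtc PA library, and fell by 0.93 on the log2 scale (SE 0.12, FDR 1.31e-05). Stat2 stood at 20.8, 16.7 and 18.9 FPKM and fell by 0.58 (SE 0.06, FDR 7.94e-07). Irf9 stood at 8.36, 7.37 and 8.30 FPKM and fell by 0.40 (SE 0.09, FDR 0.0121). The groups did not overlap for any of these genes, and siMk5 PA replicate 2 was the lowest library for each. These were 3 of 8 members, where 0.547% of all genes were called and 0.491% were called lower, and the median over the members was -0.33 beside 0.00 over all genes.

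The Irf9 call was the least firm of these. It was lost without siMk5 PA replicate 2 (-0.34, FDR 0.181), without siNtc PA replicate 1 (-0.37, FDR 0.078) or without siNtc PA replicate 3 (-0.38, FDR 0.0508), and with the 18S share as a covariate (-0.32, FDR 0.129). Irf7 and Stat2 passed with that covariate, at -0.72 and -0.50.

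Irf1 (chr11:53660841-53669200), which drives antigen presentation genes, took part in the fall under PA by a smaller amount. Its levels were 12, 11.8 and 12 FPKM in siNtc PA and 10.2, 9.25 and 9.63 in siMk5 PA. The groups did not overlap, and the 3 siMk5 PA values lay in or near the range of the BSA libraries, 8.96 to 9.87. The log2 fold change of -0.30 (SE 0.05) had an FDR of 0.000476, and at 1.23-fold lower it stayed under the fold limit of 1.3, while 0.776% of all genes passed by FDR alone. The log2 fold changes were -0.16 for Irf2 (SE 0.07), 0.11 for Irf3 (SE 0.07), -0.37 for Irf5 (SE 0.24) and -0.07 for Stat3 (SE 0.05), and their FDRs were between 0.682 and 0.882.

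Set directly against each other under PA, siErk3 exceeded siMk5 in 4 of the 8 members, beside 1.03% of all genes called and 0.854% called higher. Irf7 was 2.54-fold higher (log2 1.35, SE 0.12, FDR 1.84e-09), Stat2 1.64-fold (log2 0.71, SE 0.06, FDR 2.09e-09), Irf9 1.49-fold (log2 0.57, SE 0.08, FDR 3.44e-05) and Irf1 1.31-fold (log2 0.39, SE 0.05, FDR 3.37e-06). The Irf1 value lay at the fold limit and fell to 0.36 without siMk5 PA replicate 2. Irf5 was at 0.965, 0.673 and 0.940 FPKM in siErk3 PA and at 0.542, 0.465 and 0.622 in siMk5 PA without overlap, with a log2 fold change of 0.65, an SE of 0.23 and an FDR of 0.229.

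**Figure D2:**
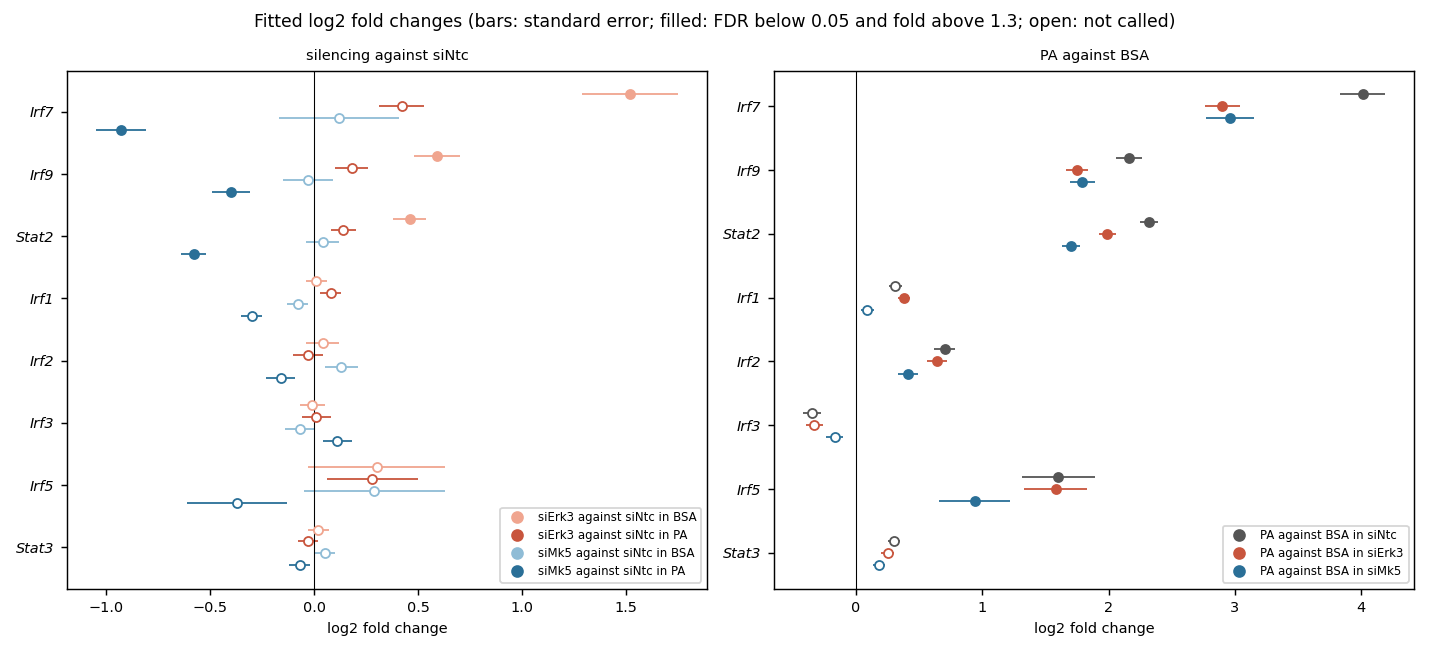
Fitted log2 fold changes with standard errors for the 8 tested genes, silencing against siNtc in each medium on the left and PA against BSA for each siRNA on the right; filled points passed an FDR of 0.05 with a fold above 1.3. On the left the filled points are Irf7, Irf9 and Stat2, to the right of 0 for siErk3 in BSA and to the left of 0 for siMk5 in PA, and on the right Irf7 lies farthest from 0 with every siRNA.

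The response of the members to PA itself was read in the siNtc libraries first. In siNtc, Irf7 rose 16.1-fold (log2 4.01, SE 0.18, FDR 6.32e-18), Stat2 4.99-fold (log2 2.32, SE 0.07, FDR 6.20e-22) and Irf9 4.47-fold (log2 2.16, SE 0.10, FDR 1.56e-17). Irf5 rose 3.02-fold (log2 1.60, SE 0.29) from counts of 4 to 24 per library in BSA to 33 to 51 in PA. Irf2 (chr8:47192767-47300493), the family member that can occupy IRF1 sites as a repressor, rose 1.63-fold (log2 0.70, SE 0.08), from 3.00, 3.12 and 3.31 FPKM to 4.85, 5.03 and 5.55. These were 5 of the 8 members, all higher, where PA altered 30.6% of all genes and raised 15.5%, and the median over the members was 1.15 beside -0.03 over all genes.

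The other 3 members passed the FDR and not the fold limit, and by FDR alone all 8 passed, as did 45.1% of all genes. Irf1 changed by 0.31 on the log2 scale (SE 0.05) and Stat3 (chr11:100775924-100830366) by 0.30 (SE 0.05), from 18, 20.5 and 20.5 FPKM to 24.2, 24.3 and 24.4. Irf3 (chr7:44647072-44652272) was the member with the opposite sign, at 8.22, 9.53 and 9.84 FPKM in BSA and 6.93, 7.26 and 7.65 in PA, a log2 fold change of -0.35 (SE 0.07, FDR 6.48e-05) that passed the fold limit only without siNtc BSA replicate 1 (-0.42) or without siNtc PA replicate 3 (-0.38). The BSA and PA groups of siNtc were apart for every tested member.

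The same comparison in siErk3 called 6 members, all higher, beside 32.1% of all genes called and 15.8% called higher. In siMk5 it called 5, all higher, beside 29.7% called and 15.1% called higher. Irf7 rose 7.49-fold in siErk3 (log2 2.90, SE 0.14) and 7.79-fold in siMk5 (log2 2.96, SE 0.19). Stat2 rose 3.99-fold in siErk3 (log2 1.99, SE 0.07) and 3.26-fold in siMk5 (log2 1.70, SE 0.07). Irf9 rose 3.37-fold (log2 1.75, SE 0.09) and 3.46-fold (log2 1.79, SE 0.10), Irf5 2.98-fold and 1.91-fold, and Irf2 1.55-fold and 1.33-fold. Irf1 passed only in siErk3 (1.3-fold, log2 0.38, SE 0.05), where it fell under the fold limit without siErk3 BSA replicate 2 (0.35) or siErk3 PA replicate 3 (0.36), and it had a log2 fold change of 0.09 (SE 0.05, FDR 0.191) in siMk5, while the interaction of siMk5 and PA for Irf1 did not pass (-0.22, SE 0.07, FDR 0.381). The Irf2 call in siMk5 was likewise lost to the fold limit without siMk5 BSA replicate 1 or siMk5 PA replicate 1, both at 0.34.

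Whether silencing altered the response to PA was tested by the interaction. For siMk5, Stat2 alone among the members passed (-0.61 on the log2 scale, SE 0.10, FDR 0.00314), beside 0.211% of all genes called and 0.161% called with a negative sign. Its rise with PA was 4.99-fold in siNtc and 3.26-fold in siMk5. With the 18S share as a covariate the value was -0.40 with an FDR of 0.262. For Irf7 the interaction was -1.05 (SE 0.31, FDR 0.271) with siMk5 and -1.11 (SE 0.26, FDR 0.167) with siErk3, for Irf9 -0.37 (SE 0.15) and -0.41 (SE 0.14), and none of these passed. With the 18S covariate the siMk5 values were -0.51 for Irf7 (FDR 0.768) and -0.18 for Irf9 (FDR 0.878). Without the covariate, other members had an unadjusted p under 0.05 in edgeR for the siMk5 interaction. These were Irf7 (0.00229), Irf1 (0.00504), Irf2 (0.0131) and Irf9 (0.0172). With siErk3 no member passed, beside 0.0367% of all genes in edgeR, DESeq2 called none of them, and 3 of 8 had an unadjusted p under 0.05. Irf7 started from a higher BSA level in siErk3 than in siNtc, 1.56 ± 0.34 against 0.52 ± 0.18 FPKM, and its interaction with siErk3 passed with the 18S covariate (-1.52, FDR 0.000666) or without siErk3 PA replicate 3 (-1.18, FDR 0.0425). That of Stat2 with siErk3 passed with the 18S covariate too (-0.46, FDR 0.0345). In mean FPKM, Irf7 rose with PA by 10.1 in siErk3, 8.18 in siNtc and 3.98 in siMk5. Stat2 rose by 23.1, 22.4 and 13 and Irf9 by 8.37, 8.19 and 5.69, in the same order. With siErk3 the smaller response of these genes thus held on the log2 scale only, and with siMk5 on both scales.

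Some marker lists moved with PA as well. The summed level of 4 fibroblast markers was 213.9 to 269.1 FPKM in the BSA libraries and 67.0 to 118.4 in the PA libraries, and 3 of the 4 (Pdgfra, Dcn and Col1a1) were called lower with each siRNA. Of 8 myotube markers, 4 were called lower in siNtc and 2 in each of siErk3 and siMk5, beside 30.6%, 32.1% and 29.7% of all genes called in either direction. The part of these shifts in the values of the members was not tested. The 4 immune markers with enough counts to be tested summed to 0.565 to 1.45 FPKM over all libraries. Among them edgeR called Csf1r lower with PA in siNtc (log2 -1.5, SE 0.54, FDR 0.0234) and in siErk3 (log2 -1.78, SE 0.62, FDR 0.0181), from 1 to 16 counts per library. Cd68 was called higher in siMk5 (log2 0.66, SE 0.25, FDR 0.0305). DESeq2 called 0 of these markers in siNtc, 0 in siMk5 and 1 in siErk3.

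The balance between members changed with PA and with silencing. Per length, Irf7 stood at 0.0561 ± 0.0181 of the Irf3 level in siNtc BSA (n = 3) and at 1.20 ± 0.127 in siNtc PA. The same ratio was 0.171 ± 0.0396 in siErk3 BSA, 1.58 ± 0.122 in siErk3 PA and 0.580 ± 0.116 in siMk5 PA. By this measure Irf7 RNA was above Irf3 RNA in the PA libraries of siNtc and siErk3 and below it in those of siMk5. These are ratios of RNA that depend on the exon lengths used, and levels of the proteins were not measured here. The ratio of Stat2 to Irf9, whose products form a complex, ranged from 2.21 ± 0.199 in siErk3 BSA to 2.66 ± 0.00582 in siNtc PA. Irf1 stood at 3.08 ± 0.166 of the Irf2 level in siNtc BSA, at 2.33 ± 0.156 in siNtc PA and at 2.12 ± 0.123 in siMk5 PA.

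**Figure D3:**
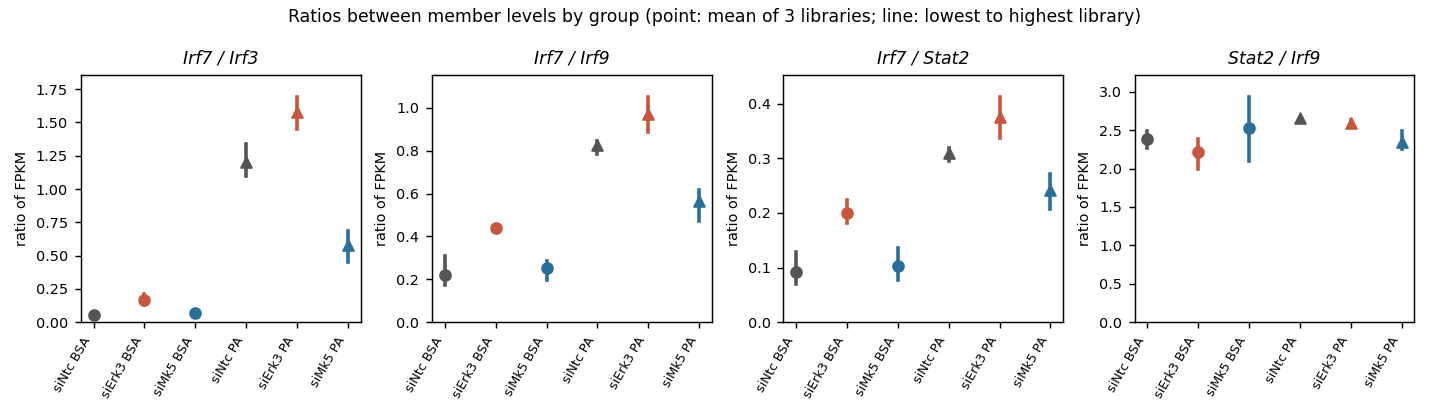
Ratios of FPKM between members in each group, as the mean of 3 libraries with a line from the lowest to the highest library; all axes start at 0. The ratios of Irf7 to Irf3, Irf9 and Stat2 stand highest in siErk3 PA and are lower in siMk5 PA than in siNtc PA, while Stat2 against Irf9 stays between 1.99 and 2.93 in every library.

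Across the 18 libraries Irf7, Irf9 and Stat2 followed each other, with Pearson's r of log2 CPM of 0.99 for Irf7 and Irf9, 0.99 for Irf9 and Stat2 and 0.98 for Irf7 and Stat2. The medium divides these libraries, and 15.8 to 22.8% of 11745 other genes had an r of at least 0.9 with 1 of these 3 genes. Within the 9 BSA libraries the 3 values were 0.90, 0.91 and 0.91, and within the 9 PA libraries 0.99, 0.99 and 0.98, where the libraries share their siRNA groups. Irf1 followed them in PA, with an r of 0.97 with Irf7 and 0.99 with Stat2, and less in BSA, with 0.30 and 0.39. Irf3 had negative values with every other tested member over all 18 libraries, from -0.73 with Irf5 to -0.88 with Stat2. Within the 9 PA libraries its values stayed negative, from -0.43 with Irf5 to -0.71 with Stat3. Within the 9 BSA libraries they were positive, from 0.08 with Irf2 to 0.67 with Stat3. Of these, the values with Irf9 (0.09), Irf7 (0.19), Irf1 (0.20) and Stat2 (0.23) were small for 9 libraries. The library with the fewest fragments, siNtc BSA replicate 1, held the lowest BSA levels of Irf3 (8.22 FPKM) and Stat3 (18 FPKM).

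The genes most like Irf9 over the 18 libraries were the antiviral genes Ifit3, Oasl2 and Isg15 (r of 0.998 each), and those most like Irf7 were Ifi44, Usp18 and Apol9a (0.994 to 0.996). Stat2 was most like Adar, an RNA editing enzyme, Rnf213 and Helz2 (0.996 to 0.998). Irf1 was most like Parp12, Ankfy1 and Tlr3, at a lower 0.940 to 0.944, and only 22 genes reached an r of 0.9 with it. Within the PA libraries these 3 had an r of 0.98, 0.97 and 0.96 with Irf1, and within the BSA libraries one of 0.09, 0.47 and 0.29. For the genes most like Irf7, Irf9 and Stat2 the values were 0.91 to 0.98 within BSA and 0.97 to 0.99 within PA. Irf2 was most like Med1, Champ1 and Trappc10 (0.984 to 0.985), Irf3 like Plaat3, Pacsin3 and Urod (0.946 to 0.958), Irf5 like Rrp7a, Mthfd1 and Alkbh6 (0.937 to 0.948), and Stat3 like Rai1 (0.978) and Slc12a4 (0.975). An r of at least 0.9 was reached by 22.4% of genes with Irf2, 17.7% with Stat3, 1.66% with Irf3 and 1.3% with Irf5. Within a medium the named genes were less alike, at 0.79 to 0.93 for Irf2 and 0.80 to 0.92 for Stat3. For Irf3 the values were 0.79 to 0.90 in BSA and 0.71 to 0.80 in PA, and for Irf5 0.80 to 0.89 and 0.45 to 0.73.

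Genes around the members were counted by role. Of 10 ligands, 6 were tested, and neither edgeR nor DESeq2 called one in the silencing comparisons with siNtc, where at most 3 had an unadjusted p under 0.05. With PA in siNtc, the STAT3-activating cytokines Il6 (0.31 ± 0.11 to 3.14 ± 0.18 FPKM, log2 3.35) and Clcf1 (4.98 ± 0.03 to 10.7 ± 1.03 FPKM, log2 1.1) rose and Ctf1 fell by 0.53 on the log2 scale. Ifnb1, the gene of interferon beta, had 28 counts in all, 1 to 7 in each of the 9 PA libraries and 0 in each BSA library. It was called higher with PA in siNtc and in siErk3, from counts of at most 7. Ifng had 7 counts over all libraries and the type III interferon genes Ifnl2 and Ifnl3 had 0.

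Of 23 receptors and upstream kinases, edgeR and DESeq2 called none in a silencing comparison with siNtc, and 0 to 5 had an unadjusted p under 0.05 in edgeR. With PA, 8 were higher and 2 lower in siNtc, 7 and 3 in siErk3, and 4 and 2 in siMk5. Of all genes, 30.6%, 32.1% and 29.7% were called, and 15.5%, 15.8% and 15.1% were called higher. The median log2 fold change of the list was 0.25, 0.24 and 0.19, beside -0.03, -0.01 and -0.01 over all genes. Whether the list differed from all genes was not tested. The Toll-like receptor adaptors Myd88 (log2 1.28, SE 0.08) and Ticam1 (log2 0.80, SE 0.07) and the oncostatin M receptor gene Osmr (log2 0.51, SE 0.04) rose in siNtc, and the leukemia inhibitory factor receptor gene Lifr fell by 1.20 on the log2 scale.

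Of 17 inhibitors tested, Usp18, which removes ISG15 from proteins and dampens the interferon receptor, was called higher in siErk3 BSA (1.43 ± 0.48 against 0.27 ± 0.13 FPKM, log2 2.31, FDR 1.44e-05). It was also higher in siErk3 PA (log2 0.41, FDR 0.045, not called by DESeq2) and lower in siMk5 PA (log2 -1.06, FDR 3.72e-07), where the antibody receptor gene Trim21 was lower too (log2 -0.53, FDR 0.012). The SOCS genes, PIAS genes and phosphatases on the list were not called in these 3 comparisons. Usp18 was also the inhibitor called in the interaction of siErk3 and PA (-1.89, SE 0.32, FDR 0.0407).

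Known targets were read as 3 lists. Of 21 targets of STAT2 and IRF9, 16 were higher in siErk3 BSA, beside 0.588% of all genes called higher. The median log2 fold change of the 21 was 1.52, beside 0.02 over all genes. In siErk3 PA edgeR called 8 higher and DESeq2 4, with a median of 0.31, where edgeR called 0.556% of all genes in either direction. In siMk5 BSA neither tool called one, 1 had an unadjusted p under 0.05 and the median was -0.12. In siMk5 PA edgeR called 20 lower and DESeq2 15, with a median of -0.88, where edgeR called 0.491% of all genes lower. The antiviral oligoadenylate synthetase gene Oas2 stood at 2.98 ± 1.27 FPKM in siErk3 BSA against 0.45 ± 0.18 in siNtc BSA (log2 2.67, FDR 6.97e-07), and Ifit3 at 47.8 ± 8.16 in siMk5 PA against 112.9 ± 16.9 in siNtc PA (log2 -1.24, FDR 6.94e-07). The viperin gene Rsad2 had the smallest FDR of the list in siErk3 PA, at 23.4 ± 1.21 FPKM against 7.52 ± 0.99 (log2 1.64, FDR 1.21e-12). With PA all 21 rose with each siRNA, beside 15.5%, 15.8% and 15.1% of all genes called higher. The medians were 4.45 in siNtc, 3.58 in siErk3 and 4.02 in siMk5. Their summed level was 36.6 to 44.2 FPKM in siNtc BSA, 64.9 to 108.5 in siErk3 BSA, 594.1 to 689.5 in siNtc PA, 822.0 to 865.4 in siErk3 PA and 299.4 to 404.8 in siMk5 PA.

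Of 15 targets of IRF1 tested, 6 were higher in siErk3 BSA, beside 0.588% of all genes called higher. In siErk3 PA 4 were higher, beside 0.556% of all genes called in either direction. None was called in siMk5 BSA by edgeR or DESeq2, with 0 at an unadjusted p under 0.05. In siMk5 PA 9 were lower, beside 0.491% of all genes called lower. Irf1 itself did not pass the call rule in these comparisons. The class I heavy chain gene H2-K1 (38.8 ± 2.34 against 22.4 ± 2.56 FPKM, log2 0.79) and its partner B2m (276.5 ± 13.2 against 192.4 ± 3.59 FPKM, log2 0.52) rose in siErk3 BSA. The guanylate-binding protein genes Gbp3 (log2 -1.11) and Gbp2 (log2 -1.22) and the peptide transporter gene Tap1 (log2 -0.93) fell in siMk5 PA. With PA, 10 were higher in siNtc, 10 in siErk3 and 8 in siMk5, beside 15.5%, 15.8% and 15.1% of all genes called higher, and Tapbp, the gene of the chaperone tapasin, was lower in siMk5.

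Of 17 targets of STAT3 tested, none was called in any of the 4 silencing comparisons with siNtc by edgeR or DESeq2, with 2 at an unadjusted p under 0.05 in each and medians between -0.05 and 0.04. With PA, 11 were higher in siNtc, 11 in siErk3 and 10 in siMk5, beside the same shares of all genes, among them the transcription factor genes Cebpb (23.2 ± 4.61 to 95.8 ± 9.05 FPKM in siNtc, log2 2.02) and Myc (12.4 ± 0.56 to 52.2 ± 8.01 FPKM, log2 2.06). Among 4 further tested family members, Stat5a fell with PA with each siRNA, by 0.50 on the log2 scale in siNtc, 0.40 in siErk3 and 0.55 in siMk5, and edgeR and DESeq2 called none in a silencing comparison with siNtc, where at most 1 had an unadjusted p under 0.05.

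**Figure D4:**
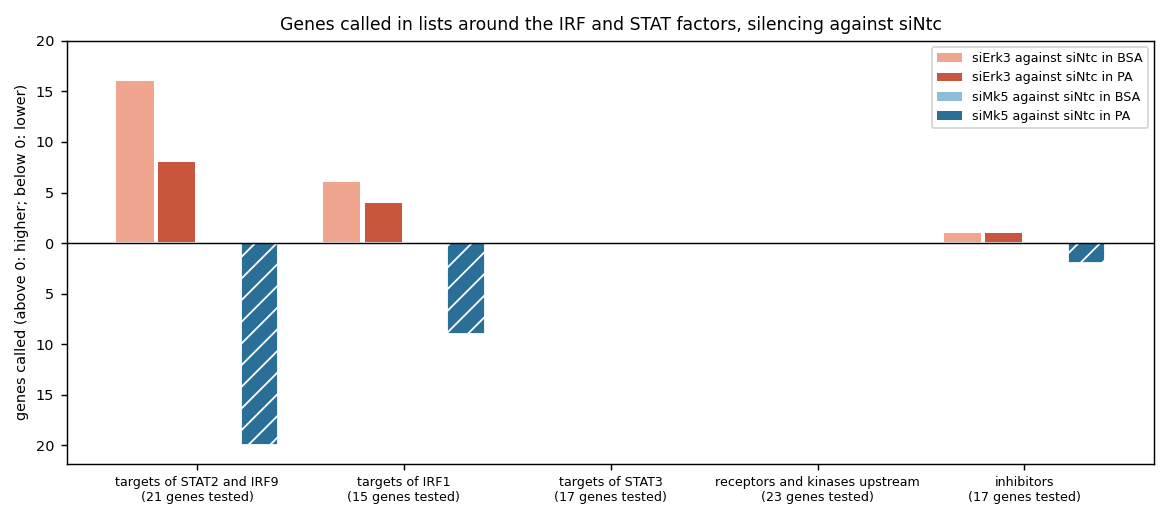
Number of genes called higher (bars above 0) or lower (hatched bars below 0) in 5 lists for each silencing comparison with siNtc; the number tested stands under each list. Targets of STAT2 and IRF9 reach 16 and 8 higher with siErk3 and 20 lower with siMk5 in PA, and the bars of the STAT3 target list and of the receptors and kinases are at 0.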

How the data were processed

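Counts of RNA-seq fragments per gene were deposited by the authors for 18 libraries of C2C12 myotubes, prepared from 500 ng of RNA by poly(A) selection with strand marking and sequenced as pairs of 151 bases. The authors trimmed reads, aligned them to GRCm39 with STAR and counted them by strand with featureCounts 2.0.0 (minimum mapping quality 3, Ensembl release 105), while the labels name mm10. A deposited log2 table labelled as FPKM holds log2 of scaled counts plus 1 and was not tested. Library totals set the precision of each value. Groups followed the labels.

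Genes whose counts summed to 10 or more were tested in R 4.3.3 with edgeR 4.0.16 (TMM, quasi-likelihood test, all 18 libraries in 1 fit) in 11 comparisons, and were called at a Benjamini-Hochberg FDR below 0.05 and a fold above 1.3. FPKM were computed from counts and exon lengths. Alternatives were DESeq2 1.42.0, other size factors and filters, fewer libraries, a replicate block and the 18S share as a covariate. The edgeR fit was checked on simulated data. The members and gene lists were chosen with earlier results of these data known, and list genes were named by the smallest FDR, up to 4 per list and comparison. Tapbp lay outside this rule and was named as the target of IRF1 called lower with PA in siMk5. Genes most like a member were the 3 with the largest r of log2 CPM among genes with a mean of at least 1. No comparison of single values by exact permutation was made, since 3 against 3 libraries cannot go below p = 0.1. Values of 2 genes are not reported here.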

Additional observations from a re-analysis of the deposited data

Results flagged for a closer look

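The difference between the PA response of Stat2 in siMk5 and in siNtc myotubes was tested directly and passed, at -0.61 on the log2 scale (SE 0.10, FDR 0.00314 by edgeR's quasi-likelihood test). Stat2 changed from 5.61 ± 0.28 to 28.1 ± 1.57 FPKM in siNtc and from 5.77 ± 0.09 to 18.8 ± 2.05 FPKM in siMk5 (SD, n = 3). DESeq2 gave -0.61 with an FDR of 7.08e-05, and the value lay between -0.69 and -0.53 when each library was left out. The 18S share in siMk5 was 8.39 to 12.9% of counts in BSA and 1.71 to 6.69% in PA, and with this share as a covariate, chosen after seeing the data, the value was -0.40 with an FDR of 0.262.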

How the results depend on the processing

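Of 88 fitted member values, none changed sign as a called value under any alternative. All 88 kept their side of the threshold with DESeq2, with DESeq2 size factors, with filterByExpr and without Rn18s-rs5. The number of members called with siErk3 against siNtc in PA was 1 with no filter, 1 in a fit of only the groups compared, 1 with the 18S share as a covariate, and 0 to 1 when each library was left out, against 0 as reported. For PA against BSA in siNtc it was 8 by FDR alone against 5. For the interaction of siErk3 and PA it was 2 with no filter, 2 with the 18S covariate and 0 to 1 with a library left out, against 0. For the interaction of siMk5 and PA it was 2 with no filter and 0 with the 18S covariate, against 1. With the 18S covariate 4 values were no longer called and 4 became called, and among 624 values with a library left out 9 were no longer called and 4 became called; the cause was not tested.

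Replicate numbers were not taken as pairs, and deviations of same-numbered libraries correlated between -0.64 and 0.56. Under PA, siErk3 and siMk5 had an r of 0.56 for replicate 1, 0.04 for replicate 2 and 0.47 for replicate 3. The siNtc PA libraries opposed them for replicates 1 and 3, at -0.64 for both with siErk3 and at -0.54 and -0.45 with siMk5. For replicate 2 the siNtc PA values were 0 with siErk3 and 0.01 with siMk5. Libraries of different number were not compared, and the cause was not tested. The replicate block left all 88 calls as they were, with Irf7 at 1.52 for siErk3 in BSA and Stat2 at -0.58 for siMk5 in PA. Low counts limit Irf5 and Irf7 in BSA, and Irf8 could not be measured.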
